A study of Mus musculus with 24 samples.

Results

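The 10 genes described here were followed as the AP-1 and immediate early genes: the Fos family (Fos, Fosb, Fosl1 and Fosl2), the Jun family (Jun, Junb and Jund), the zinc-finger genes Egr1 and Egr2, and the small Maf gene Maff. They were taken by symbol from the 21965 genes of the count table, all 10 were found, and all 10 were among the 17167 genes that passed the filter of 10 counts over all libraries. The tissue was spinal cord of OL-Ribotag mice, in which a tamoxifen-activated Cre leads to HA tagging of the ribosomal protein RPL22 in mature oligodendrocytes (OLs). Groups were naive mice, with neither injury nor surgery, and mice on days post-injury (dpi) 2, 10 and 42 after a moderate contusion at T9, all female and 10 to 12 weeks old by their labels. The study's methods give other ages, with naive and dpi 42 tissue taken on the same day from mice of the same age. By those methods all mice were injured within the same age range, so age rose with time after injury. Age and time after injury then cannot be told apart in the dpi 2 and dpi 10 comparisons with naive tissue. The same holds for comparisons between days after injury. Each group had 3 pools, 2 mice to a pool. From every pool came 1 library of HA-bound RNA (the OL translatome, written OL for short) and 1 of total spinal cord RNA, which makes 24 libraries.

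AP-1 is a dimer of basic leucine zipper proteins, in its usual form a Fos protein with a Jun protein. Jun proteins can pair with each other, whereas Fos proteins need a Jun partner. Fos, Fosb, Fosl1, Junb, Egr1, Egr2 and Maff are early response genes: they are transcribed soon after a growth factor, cytokine, calcium or stress signal without new protein synthesis, and MAP kinases, CREB, ternary complex factors and SRF act on their promoters. Jund is generally the constitutive member of the Jun family, and Jun is activated in stressed and injured neurons and glia. Egr2 is also the master transcription factor of Schwann cell myelination.

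The promoters are shown because several of these genes rose together. The set of RefSeq (GRCm38.p6) promoter windows used here covered 8 of the 10 genes, with none for Fosl1 and Egr1. Shown are the 250 bases before the annotated start, written 5′ to 3′ on the gene's strand, of 4 genes that rose in OLs on dpi 2, each chosen because it holds the CRE core, and of Jun, which did not rise. Capitals mark matches, on either strand, to the CRE core TGACG, the full CRE TGACGTCA, the AP-1 site TGANTCA, the TGACATCA site of the Jun promoter, the EGR site GCGNGGGCG, TATAAA or the CArG box bound by SRF. The first is at chr12:85473640-85473889 (+ strand), the second at chr7:19310046-19310295 (- strand), the third at chr8:84978749-84978998 (- strand), the fourth at chr15:79347270-79347519 (+ strand) and the fifth at chr4:95052223-95052472 (- strand).
Fos: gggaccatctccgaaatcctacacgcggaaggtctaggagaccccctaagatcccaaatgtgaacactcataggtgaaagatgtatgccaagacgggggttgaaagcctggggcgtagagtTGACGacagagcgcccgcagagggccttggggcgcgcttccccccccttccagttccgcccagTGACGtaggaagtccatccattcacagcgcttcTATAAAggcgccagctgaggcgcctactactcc
Fosb: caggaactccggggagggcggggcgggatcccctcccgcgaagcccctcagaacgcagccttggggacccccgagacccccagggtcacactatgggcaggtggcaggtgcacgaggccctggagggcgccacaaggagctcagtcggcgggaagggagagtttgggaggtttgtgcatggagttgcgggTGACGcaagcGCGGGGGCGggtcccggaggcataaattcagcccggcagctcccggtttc
Junb: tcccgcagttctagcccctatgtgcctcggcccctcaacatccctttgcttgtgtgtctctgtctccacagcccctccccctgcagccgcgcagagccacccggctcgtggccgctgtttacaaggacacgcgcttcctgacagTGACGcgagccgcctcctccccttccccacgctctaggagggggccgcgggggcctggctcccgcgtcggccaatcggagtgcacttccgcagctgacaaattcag
Maff: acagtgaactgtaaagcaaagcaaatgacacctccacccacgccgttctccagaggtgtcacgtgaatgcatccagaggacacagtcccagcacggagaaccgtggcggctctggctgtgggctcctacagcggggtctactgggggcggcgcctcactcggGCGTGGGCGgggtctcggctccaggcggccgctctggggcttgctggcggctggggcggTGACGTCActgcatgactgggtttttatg
Jun: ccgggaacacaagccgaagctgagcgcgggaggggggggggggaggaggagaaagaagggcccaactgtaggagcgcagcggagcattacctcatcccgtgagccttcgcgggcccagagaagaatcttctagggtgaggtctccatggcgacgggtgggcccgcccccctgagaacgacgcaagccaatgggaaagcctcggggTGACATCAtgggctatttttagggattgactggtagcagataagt

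The Fos window holds the CRE core at 129 and 66 bases before the start and TATAAA at 33. The Fosb window holds the core at 60 bases and, apart from it, an EGR site at 50, and 6 of its bases lie in an annotated exon of the gene, as no base of the other 4 windows does. In Junb the core lies 106 bases before the start. The Maff window is 1 of 3 for this gene in the set used and was picked for its full CRE, 29 bases before the start. That CRE contains the core on both strands, and an EGR site lies at 88. The Jun window holds no TGACG but has TGACATCA at 45 bases. Of 32817 promoter windows of the same length, 17.7% hold TGACG, 1.55% TGACGTCA, 6.75% TGANTCA, 2.93% TGACATCA, 4.70% GCGNGGGCG, 12.4% TATAAA and 1.47% a CArG box. None of the 5 windows shown holds TGANTCA or a CArG box, but bases further upstream were not searched. Because 4 of the genes shown were chosen for the core, the number of shown genes with the core is no result. Of the windows not shown, that of Fosl2, which rose, holds an EGR site but no TGACG and lies in an annotated exon. Those of Egr2, which was not called, include TGACG and a CArG box. That of Jund, at chr8:70697489-70697738, holds none of the motifs. It ends well before the GENCODE start of Jund, at 70698949, so it does not describe the bases just before that start. The Maff window at chr15:79346371-79346620, just before the annotated start of the gene, holds none of the motifs. That at chr15:79348152-79348401 holds TGACG and TGACATCA. These matches describe the letters of the windows and were not tested as binding sites.

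Libraries held 25840127 to 32987841 counts, so values are given as CPM, in which counts are scaled to library size by the trimmed mean of M-values (TMM), and a count of 3 is about 0.1 CPM. All 7 OL markers were called higher in OL than in input in each of the 4 conditions. Myeloid marker sums in OL were 9.67%, 6.38%, 6.21% and 7.37% of those in total RNA in naive tissue and on dpi 2, 10 and 42, and neuron marker sums were 4.95%, 8.27%, 8.10% and 5.70%. Endothelial sums were 4.65%, 6.16%, 9.56% and 8.15%, OPC sums 17.4%, 14.9%, 21.6% and 29.8%, and neutrophil sums 16.5%, 6.35%, 6.78% and 3.48%. Other lists were less depleted. Fibroblast and pericyte sums in OL were 86.7%, 39.6%, 26.4% and 35.9% of those in total RNA, and astrocyte sums were 68.5%, 58.9%, 47.6% and 111%, with 0 of 6 astrocyte markers called lower in naive OL. Astrocyte sums also varied between OL libraries of a group, from 1297 to 8449 CPM in naive tissue, 945 to 7676 on dpi 2, 2040 to 6259 on dpi 10 and 1915 to 12188 on dpi 42, against 4798 to 7879 CPM in all total RNA libraries. Their part in the levels of the 10 genes was not tested. A pair of pools stood apart. Both libraries of pool 2 of dpi 2 held 2414 to 2604 counts on 4 Y-linked genes, against 0 to 13 in the other 22 libraries, although the labels give female mice. Pool 3 of naive tissue held Schwann cell markers at a summed 90.002 CPM in OL and 28.4 CPM in total RNA, against 1.60 to 2.13 CPM in the other 4 naive libraries. Its OL library also held 8449 CPM of astrocyte markers, against 1455 and 1297 in naive pools 1 and 2. OPC markers were at 49.8 CPM, against 19.6 and 17.6, and OL markers at 73001 CPM, against 91672 and 92600. Leaving out this pool thus changes more than the Schwann cell markers. In tissue RNA, fewer cells of a type and less RNA per cell cannot be told apart.

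Ordered by level per kilobase of exon, Jund led in every group and Jun followed in every group. In naive OLs Jund had a mean of 191.0 CPM per kb (range 182 to 200.1) and Jun 57.9 (range 41.2 to 66.5), and Fos, next in order, had only 1.55 (range 1.04 to 2.29). Junb followed at 0.913, and the ranges of Junb and Egr2 and of Egr2 and Egr1 overlapped. Fosb was last at 0.0337. On dpi 2 in OLs the order was Jund (213), Jun (48.4), Fos (41.9) and Junb (22.8), with ranges that did not overlap between neighbours. Maff, Fosl1, Egr1, Egr2 and Fosl2 followed between 5.37 and 1.80, each overlapping the next. In naive total RNA Egr1 came after Jun, at 8.46 CPM per kb, above Fos at 5.87 and Junb at 4.81, whose ranges overlapped.

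**Figure D1:**
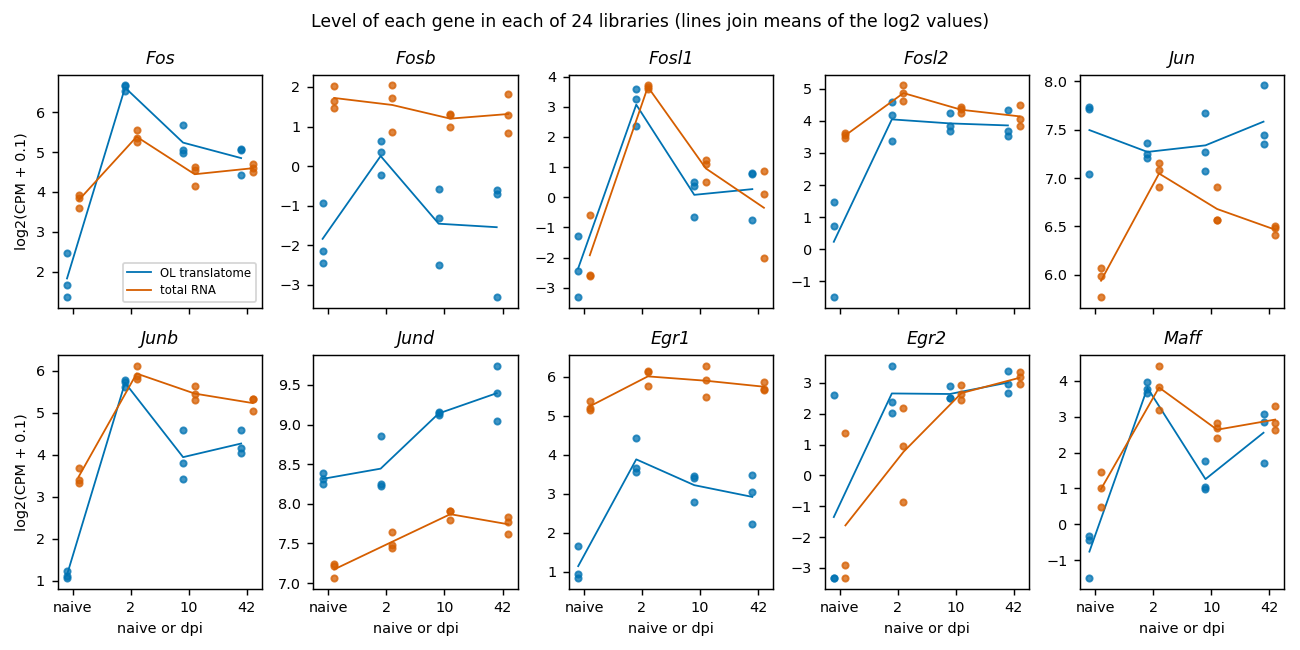
Each panel shows log2(CPM + 0.1) of 1 gene against time (naive, then dpi 2, 10 and 42) in the 12 OL (blue) and 12 total RNA (orange) libraries, with lines joining the means of the log2 values. Fos, Junb and Maff climb steeply in OL on dpi 2 and drop later, Fosl2 climbs and stays, Jund climbs late, and Jun moves in total RNA.

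Compared with naive OLs, 7 of the 10 genes were called higher in OLs on dpi 2 (Fos, Fosb, Fosl1, Fosl2, Junb, Egr1 and Maff) and none lower, where a call means a log2 fold change past 1 with an adjusted p under 0.05. Over all genes tested, 10.2% were called higher and 6.85% lower. On dpi 10, 6 genes were called higher against 6.82% of all genes, and on dpi 42, 7 genes against 8.54%. Fos, Fosl1, Fosl2, Junb, Egr1 and Maff were called on all 3 days. In total RNA, 6 genes were called higher on dpi 2 (Fos, Fosl1, Fosl2, Jun, Junb and Maff) against 10.0% of all genes, 3 on dpi 10 (Fosl1, Junb and Maff) against 9.20%, and 2 on dpi 42 (Junb and Maff) against 6.66%. The median log2 fold change of the 10 genes in OL was 3.16, 2.13 and 2.52 on dpi 2, 10 and 42, beside 0 over all genes on each day. In total RNA it was 1.37, 0.77 and 0.71, beside -0.10, -0.10 and -0.08. The comparisons of a compartment share their naive libraries. Markers of other cells were also called higher in OL on dpi 2. These were 8 of 10 myeloid (median 2.50), 4 of 5 endothelial (2.06) and 4 of 5 fibroblast and pericyte markers (3.29). None of 6 astrocyte or 6 neuron markers was called higher. The authors propose that some OL translatome mRNAs are contamination, and filtered genes by OL enrichment. That filter was not applied here, and the part of other cells in the calls was not tested.

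**Figure D2:**
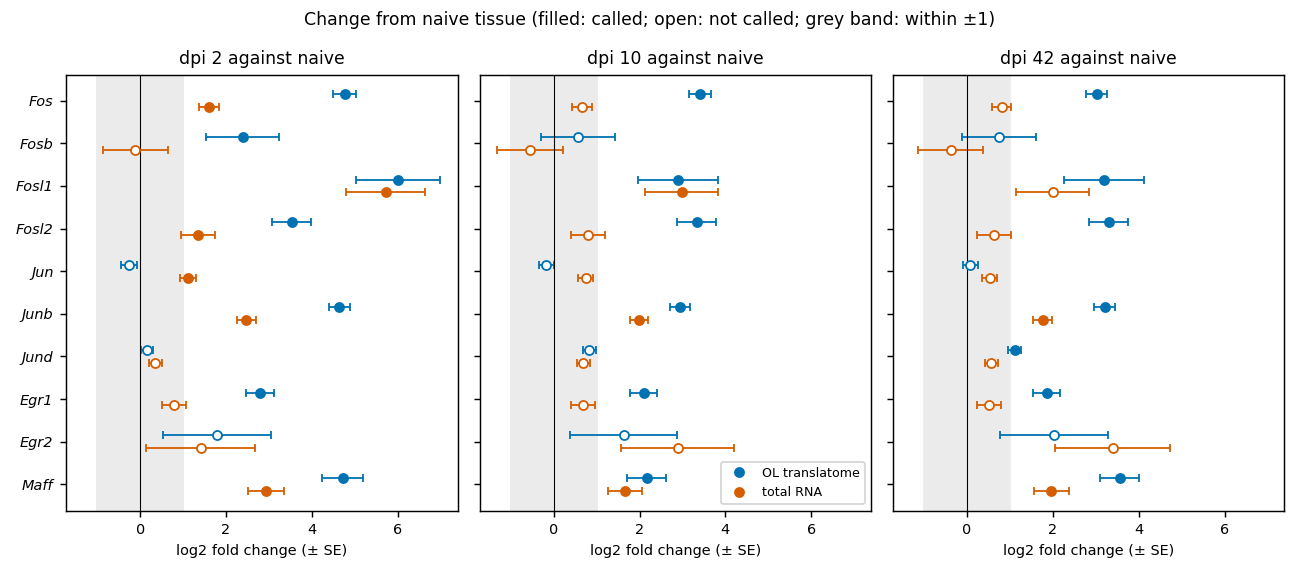
Log2 fold change from naive tissue (x axis, ± SE) of each gene in OL (blue) and total RNA (orange) on each day, filled where called, with the grey band covering changes within 1. On dpi 2 the OL points of Fos, Fosl2, Junb, Egr1 and Maff lie right of the total RNA points by more than their bars, and for Jun the order is the other way round.

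Fos, the founding member of the family and the best-known partner of Jun, rose in OLs on all 3 days. Naive OL libraries held 5.38, 3.09 and 2.45 CPM, and those of dpi 2 held 101, 103 and 92.1 CPM. The groups did not overlap and the dpi 2 libraries lay close together. The rise was 27.1-fold, a log2 fold change of 4.76 ± 0.27 (SE, n = 3 against 3, adjusted p 5.5e-11). On dpi 10 the libraries held 31.5, 50.9 and 33.4 CPM and on dpi 42 they held 21.3, 33.0 and 33.9 CPM, still above each naive library. The log2 change from naive was 3.41 ± 0.25 and 3.02 ± 0.25 on these days. In total RNA Fos went from 14.3, 15.1 and 12.1 CPM to 47.2, 40.7 and 38.0 CPM on dpi 2. That rise, 1.60 ± 0.23 (adjusted p 1.22e-05), was the only one called in total RNA for Fos, with 0.67 on dpi 10 and 0.81 on dpi 42. Fos was thus lower in OL than in total RNA in naive tissue, by 1.93 ± 0.25 on the log2 scale (adjusted p 7.25e-07), and higher by 1.23 ± 0.23 on dpi 2 (adjusted p 9.8e-05).

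Fosl2, which encodes the longer-lived Fos protein FRA-2, also rose and did not come down again. Naive OL libraries held 1.55, 0.254 and 2.68 CPM. On dpi 2 the values were 23.8, 18.1 and 10.3 CPM, on dpi 10 they were 14.3, 18.7 and 12.8 CPM, and on dpi 42 they were 20.2, 11.5 and 12.8 CPM. Each injured library lay above each naive one, and the 3 injured groups overlapped. The log2 change was 3.53 ± 0.45, 3.34 ± 0.45 and 3.30 ± 0.45 (adjusted p 2.89e-06, 2.17e-05 and 1.21e-05). From dpi 2 to dpi 10 it differed by only -0.19 ± 0.39 and from dpi 2 to dpi 42 by -0.23 ± 0.39. Without pool 3 of naive tissue the rises were 4.26, 4.07 and 4.03. In total RNA Fosl2 moved from 11.05, 11.6 and 12.3 CPM to 29.3, 34.5 and 24.3 CPM on dpi 2, a rise of 1.34 ± 0.40 (adjusted p 0.0111).

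Fosl1, which encodes FRA-1, was nearly absent before injury. It had 2, 0 and 8 counts in naive OL and 2, 2 and 18 counts in naive total RNA, the highest in each case from pool 3. On dpi 2 it had 134, 236 and 309 counts (5.06, 9.56 and 11.8 CPM) in OL and 450, 437 and 397 counts (12.6, 13.1 and 12.0 CPM) in total RNA. The log2 change was 6.00 ± 0.98 in OL and 5.72 ± 0.93 in total RNA (adjusted p 4.53e-05 and 4.62e-05), and the difference between these changes was 0.29 ± 1.18 (adjusted p 0.99). Without pool 3 of naive tissue the changes were 7.57 and 7.50, and without the OL library of naive pool 2 the OL change was 5.38. By dpi 10 the gene had fallen back to 31, 14 and 35 counts in OL and 45, 71 and 79 counts in total RNA. On dpi 42 it had 14, 43 and 42 counts in OL and 5, 60 and 34 counts in total RNA, and the latter overlapped the naive libraries. The total RNA change of dpi 42 (1.99 ± 0.85, adjusted p 0.1) became called without naive pool 3 (3.78, adjusted p 0.00928). The OL call of dpi 10 (2.90 ± 0.93, adjusted p 0.0343) was lost without the OL library of naive pool 1 or 2 or of dpi 10 pool 1 or 3, with adjusted p 0.118, 0.126, 0.0737 and 0.095. The OL call of dpi 42 (3.18 ± 0.93, adjusted p 0.0115) was lost without the OL library of naive pool 1 or 2 (adjusted p 0.0528 and 0.0558), and that of total RNA on dpi 10 (2.98 ± 0.85, adjusted p 0.00991) without the total RNA library of naive pool 1 or 2 (adjusted p 0.0534 and 0.0547). Without the OL or the total RNA library of naive pool 3 these 3 changes were 4.47, 4.70 and 4.77. The exons of Fosl1 share 1163 bases with Ccdc85b on the other strand, and the strand setting of the counting is not given in the sources used here, so reads of the pair cannot be told apart there. Ccdc85b itself had means of 43.7 CPM in naive OL and 54.9 CPM on dpi 2.

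Fosb, known in neurons for a long-lived splice form, stayed low in OLs. Naive OL libraries had 2, 3 and 11 counts, those of dpi 2 had 20, 29 and 38, those of dpi 10 had 2, 8 and 15, and those of dpi 42 had 16, 0 and 13. Only the dpi 2 libraries lay clear of the naive ones, with a log2 change of 2.38 ± 0.86 (adjusted p 0.0322). The call was lost without the OL library of naive pool 1 or 2 or of dpi 2 pool 2 or 3 (adjusted p 0.131, 0.119, 0.0576 and 0.0792), and without the OL library of naive pool 3 the change was 3.30. Without both libraries of dpi 2 pool 2 it was 2.35 with an adjusted p of 0.0619. Total RNA held 2.69, 4.00 and 3.04 CPM in naive tissue and 4.03, 3.20 and 1.72 CPM on dpi 2, which overlap (-0.12 ± 0.76, adjusted p 0.935).

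Junb, an early response Jun protein that can counteract Jun, rose in both compartments on all 3 days. It held 2.06, 1.99 and 2.26 CPM in naive OL and 48.7, 55.3 and 53.4 CPM on dpi 2. The replicates of each group lay close together and the log2 change was 4.64 ± 0.25 (adjusted p 3.42e-11). On dpi 10 it held 10.7, 23.9 and 13.9 CPM, and on dpi 42 it held 24.1, 17.8 and 16.3 CPM. The change from naive on these days was 2.94 ± 0.24 and 3.20 ± 0.24. An offset for length and GC content gave 2.53 on dpi 42, and it moved Fos from 3.02 to 2.38 and Maff from 3.56 to 2.95 on that day. In total RNA Junb rose from 9.90, 10.5 and 12.8 CPM to 55.7, 69.5 and 58.7 CPM on dpi 2, and its log2 changes were 2.47 ± 0.22, 1.99 ± 0.22 and 1.76 ± 0.22 on the 3 days. A stretch of 173 bases of Junb overlaps Prdx2 on the other strand. Prdx2 rose in OL by 1.11 on dpi 2 (adjusted p 7.08e-05), and its part in the Junb counts was not tested.

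Jun, the classical partner of Fos, did not follow this pattern. Naive OL libraries already held 211, 212 and 131 CPM, and those of dpi 2 held 164, 151 and 148 CPM. The groups overlapped, and the change was -0.26 ± 0.18 (adjusted p 0.277). On dpi 10 OL libraries held 154, 204 and 134 CPM and on dpi 42 they held 163, 174 and 249 CPM, with changes of -0.17 ± 0.18 and 0.08 ± 0.18. In total RNA Jun rose from 63.2, 66.9 and 54.4 CPM to 135, 142 and 120.2 CPM on dpi 2, without overlap (1.11 ± 0.18, adjusted p 5.08e-05). This call was lost under an offset for length and GC content (0.86, adjusted p 0.00328). Jun was 1.59 ± 0.18 log2 units higher in OL than in total RNA in naive tissue (adjusted p 1.74e-07) and 0.22 ± 0.18 higher on dpi 2 (adjusted p 0.305). On dpi 42 it was higher by 1.14 ± 0.18 (adjusted p 1.57e-05), or by 0.91 without the OL library of dpi 42 pool 3.

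Jund rose late. In OL it held 318, 334 and 303 CPM in naive tissue and 299.9, 463 and 304 CPM on dpi 2, where only pool 2 lay above the naive range. On dpi 10 it held 565, 558 and 569 CPM and on dpi 42 it held 857, 527 and 677 CPM, all above the naive and dpi 2 libraries. The log2 change was 0.16 ± 0.15, 0.82 ± 0.15 and 1.11 ± 0.15 (adjusted p 0.443, 5.39e-04 and 1.18e-05), so it was called on dpi 42 alone. The call of dpi 42 was lost without the OL library of dpi 42 pool 1 (0.88), which is also 1 of the 2 libraries with conflicting labels, and without both of these (0.92). It was lost too under the offset for length and GC content (0.28, adjusted p 0.219). Jund exons are 67.1% G and C. They span 1668 bases, of which 877 overlap Gm11175 on the other strand, a gene absent from the counts. Total RNA held 134, 152 and 148 CPM in naive tissue and 222, 239.5 and 240.03 CPM on dpi 10 (0.69 ± 0.15).

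Egr1, a zinc-finger factor that responds to many of the signals that induce Fos, was higher in total RNA than in OL throughout. It held 37.0, 35.5 and 41.3 CPM in naive total RNA and 1.81, 1.69 and 3.06 CPM in naive OL, a log2 difference of -4.11 ± 0.33 (adjusted p 6.75e-10). Its naive OL mean was 5.76% of that in total RNA, beside 4.95% for the neuron, 9.67% for the myeloid, 68.5% for the astrocyte and 86.7% for the fibroblast and pericyte markers. In OL it rose to 11.8, 12.6 and 21.3 CPM on dpi 2 (2.79 ± 0.32, adjusted p 6.12e-07) and held 6.83, 10.96 and 10.5 CPM on dpi 10 and 4.58, 11.1 and 8.18 CPM on dpi 42. All injured libraries lay above all naive ones, with changes of 2.10 ± 0.32 and 1.85 ± 0.32 on the later days. The OL mean was then 23.4%, 15.4% and 14.8% of that in total RNA. On these days neuron markers were at 8.27%, 8.10% and 5.70%, fibroblast and pericyte markers at 39.6%, 26.4% and 35.9%, and astrocyte markers at 58.9%, 47.6% and 111%, so Egr1 lay between the lists, whose part in its level was not tested. Total RNA held 71.2, 54.5 and 69.2 CPM on dpi 2, a change of 0.78 ± 0.28 (adjusted p 0.0324) that did not reach the fold required.

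Maff, a small Maf protein that lacks an activation domain and pairs with other leucine zipper proteins, held 0.630, 0.254 and 0.689 CPM in naive OL and 12.5, 13.7 and 15.7 CPM on dpi 2. The change was 4.72 ± 0.47 (adjusted p 1.11e-07), and the groups were far apart. On dpi 10 it was down to 1.94, 3.31 and 1.87 CPM (2.16 ± 0.45 from naive), and on dpi 42 it held 8.39, 7.17 and 3.17 CPM (3.56 ± 0.46). Total RNA held 1.90, 1.29 and 2.66 CPM in naive tissue and 14.1, 21.4 and 9.04 CPM on dpi 2 (2.92 ± 0.42, adjusted p 1.1e-05). The total RNA level then stayed at 5.16 to 7.03 CPM on dpi 10 and 6.14 to 9.76 CPM on dpi 42.

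In naive tissue Egr2 was highest in the pool that also held the most of the Schwann cell markers Prx and Ncmap. In naive OL it had 0, 0 and 156 counts, and in naive total RNA 1, 0 and 79 counts, the high value in both cases from pool 3. Prx, which encodes periaxin of Schwann cells, had 2, 4 and 2155 counts in the same naive OL libraries and 14, 10 and 740 in the total RNA libraries. The summed markers also include Pmp2, which was low throughout naive tissue. It had 0, 6 and 2 counts in naive OL and 0, 5 and 8 in naive total RNA. On dpi 2 Egr2 held 3.97, 11.7 and 5.16 CPM in OL, where the summed markers were 27.0, 87.5 and 43.8 CPM. On dpi 10 OL libraries held 7.42, 5.55 and 5.63 CPM beside 129.7, 75.8 and 88.6 CPM of the markers. On dpi 42 OL libraries held 6.26, 7.73 and 10.5 CPM beside 114, 121 and 139 CPM of the markers. In OL, Egr2 and the summed markers ran in the same order on each of these days. In total RNA Egr2 and the markers ran in different orders on each day. Egr2 was at 1.85, 4.46 and 0.453 CPM on dpi 2, beside 11.6, 46.5 and 15.5 CPM of the markers. On dpi 10 it was at 5.37, 7.47 and 6.17 CPM, beside 45.0, 21.7 and 25.0 CPM of the markers. On dpi 42 the values were 10.1, 8.96 and 7.74 CPM, beside 78.8, 35.4 and 50.6 CPM of the markers. Egr2 in OL was 235% of its total RNA level in naive tissue, a value set by pool 3, and 308% on dpi 2. The markers were at 287% and 215% there. On dpi 10 and 42 Egr2 in OL was 97.9% and 91.2% of its total RNA level, where the markers were at 321% and 226%. The change from naive was not called on any day in the fit of all 8 groups, with log2 values of 1.79 ± 1.25, 1.63 ± 1.25 and 2.02 ± 1.26 in OL and 1.40 ± 1.28, 2.89 ± 1.31 and 3.39 ± 1.34 in total RNA. Without naive pool 3 the change was called in all 6 of these comparisons, with values of 10.7, 10.5 and 10.9 in OL and 6.78, 8.27 and 8.77 in total RNA, against naive libraries of 0 or 1 counts, so that these fitted sizes depend on the prior count and are no bound. With only the groups compared in the fit, the change in total RNA was called on dpi 10 (3.04, adjusted p 0.00389) and dpi 42 (3.495, adjusted p 0.00761). The part of Schwann cells in the Egr2 level was not tested.

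**Figure D3:**
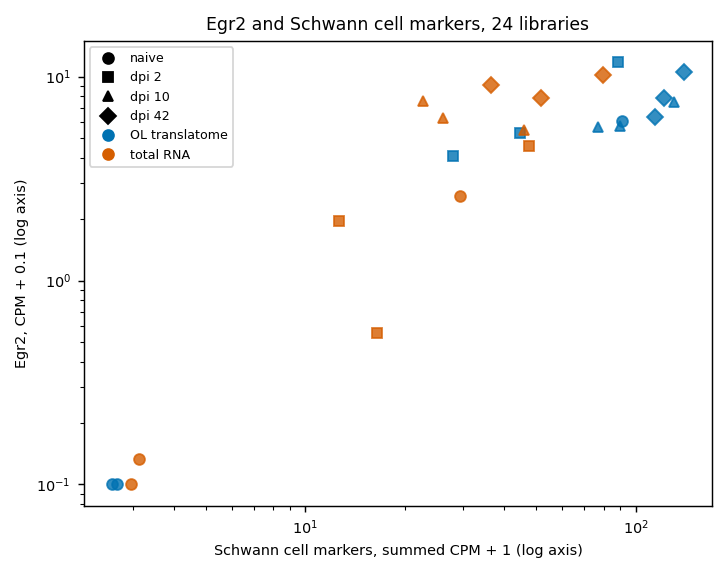
Egr2 (CPM + 0.1, log axis) against the summed CPM + 1 of 3 Schwann cell markers (log axis) in the 24 libraries, coloured by compartment and shaped by time. The 4 naive libraries of pools 1 and 2 sit at the lower left, and both libraries of naive pool 3 lie among the injured ones.

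In naive tissue 6 of the 10 genes were lower in OL than in total RNA (Fos, Fosb, Fosl2, Junb, Egr1 and Maff) and Jun and Jund were higher, beside 23.7% of all genes lower and 12.4% higher. Fosb was lower by 3.90 ± 0.89, Fosl2 by 2.94 ± 0.45, Junb by 2.39 ± 0.24 and Maff by 1.88 ± 0.45 on the log2 scale. Without both libraries of naive pool 3 the values were -4.93 for Fosb and -3.64 for Fosl2, and without the OL library of naive pool 2 that of Fosl2 was -2.29. On dpi 2 Egr1 was called lower (-2.09 ± 0.29) and Fos higher, beside 23% of all genes lower and 9.69% higher, while Junb (-0.22 ± 0.21), Maff (-0.09 ± 0.38) and Fosl2 (-0.76 ± 0.39) were not called. Egr2 on dpi 2 (1.62 ± 1.23) became called with a block for the tissue pool (1.91, adjusted p 0.00849). On dpi 10 Fosb, Junb, Egr1 and Maff were lower and Jund higher, beside 23.2% and 10.6% of all genes. On dpi 42 Fosb and Egr1 were lower and Jun and Jund higher, beside 22.5% and 10.5%. Fosb was at -3.47 without the OL library of dpi 10 pool 3, against -2.78 with it, and on dpi 42 at -2.20 without the OL library of dpi 42 pool 2, against -2.79. Under the offset for length and GC content the naive values were -1.41 for Junb and 2.82 for Jund, and the Junb call of dpi 10 was lost (-0.86). Scaling by library size alone moved the median of all genes in the naive comparison from -0.27 to -0.78. Under it Jund lost its calls in naive tissue (0.63) and on dpi 10 (0.69), Fos on dpi 2 (0.66) and Jun on dpi 42 (0.63), all 4 staying above 0, and Fosb (-1.96) and Fosl2 (-1.33) on dpi 2 and Junb (-1.45) on dpi 42 became called.

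**Figure D4:**
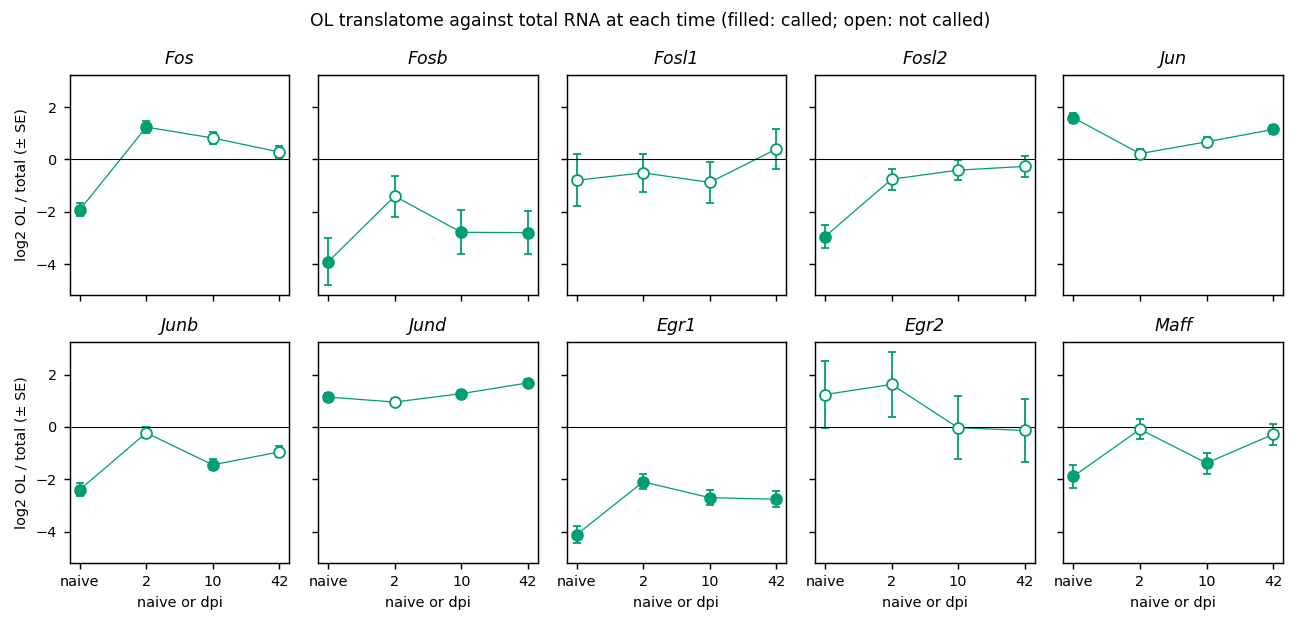
Log2 of OL against total RNA (± SE) in naive tissue and on dpi 2, 10 and 42 for each gene, filled where called, with the line at 0 marking equal levels. Fos crosses from -1.93 to 1.23 between naive tissue and dpi 2, Jun drops from 1.59 to 0.22, and Egr1 stays below 0 throughout.

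The difference between the OL change and the total RNA change was tested as an interaction (differential OL enrichment). On dpi 2 it was called higher for 5 genes, beside 3.35% of all genes, and lower for Jun, beside 2.92%. Fos gained 3.16 ± 0.33 (adjusted p 3.44e-06), Fosl2 2.19 ± 0.59 (0.0146), Junb 2.17 ± 0.31 (8.69e-05), Egr1 2.02 ± 0.42 (0.00229) and Maff 1.79 ± 0.59 (0.0447), and Jun fell by 1.37 ± 0.25 (9.46e-04), with the adjusted p in brackets. The call for Maff was lost without any 1 of 10 libraries, with adjusted p 0.0557 to 0.198: those of OL in naive pools 1, 2 and 3 and dpi 2 pools 1, 2 and 3, and of total RNA in naive pools 1 and 3 and dpi 2 pools 1 and 3. That for Fosl2 was lost without the OL library of dpi 2 pool 1 (adjusted p 0.066), its value was 1.49 without the OL library of naive pool 2, and it was 2.88 without both libraries of naive pool 3. On dpi 10 the interaction was called higher for Fos (2.74 ± 0.33), Fosl2 (2.54 ± 0.59) and Egr1 (1.41 ± 0.42, adjusted p 0.0411), beside 1.48% of all genes. The Egr1 call of dpi 10 was lost without any 1 of 9 libraries, with adjusted p 0.0645 to 0.173: those of total RNA in naive pools 1, 2 and 3 and dpi 10 pools 1 and 3, and of OL in naive pools 1 and 2 and dpi 10 pools 2 and 3. On dpi 42 it was called for Fos (2.21 ± 0.33), Fosl2 (2.68 ± 0.59) and Junb (1.44 ± 0.31), beside 1.56% of all genes, and for Egr1 it was 1.35 ± 0.42 (adjusted p 0.0504). OL and total RNA of a pool come from the same tissue, though the pairing of dpi 42 rests on conflicting labels. With a block for the tissue pool, the call for Maff on dpi 2 was lost (adjusted p 0.0562) and Egr1 on dpi 42 became called (1.31, adjusted p 0.0223). Without naive pool 3, Maff on dpi 2 was lost (1.75, adjusted p 0.0977), Egr1 on dpi 42 became called (1.61, adjusted p 0.0373), and so did Jun on dpi 10, at -1.03 (adjusted p 0.0133) against -0.92. Without the OL library of naive pool 2 the Fosl2 values of dpi 10 and 42 were 1.92 and 2.02, and without both libraries of naive pool 3 they were 3.23 and 3.37. Under the offset for length and GC content the Junb call of dpi 42 was lost (1.01, adjusted p 0.0563) and Jund became called lower on dpi 2 (-1.04). Summed myeloid markers in OL were 19.8 to 28.1 CPM in naive tissue, 79.6 to 101.03 on dpi 2, 240.15 to 272 on dpi 10 and 146 to 245.01 on dpi 42. In total RNA they rose in the same order from 228 to 271 through 1340 to 1586 and 3510 to 4789 to 2024 to 3025, and none of the 10 myeloid markers was called in the interaction on any day. Of 6 neuron markers 1 was called higher on each day, with list medians of 0.52, 0.43 and -0.01, and the endothelial list had medians of 0.36, 0.98 and 0.65 with 0 of 5 called. None of 6 astrocyte and 4 OPC markers was called (astrocyte medians -0.40, -0.68 and 0.21), and 0, 1 and 1 of 5 fibroblast and pericyte markers were called lower. The part of these cells in the interaction was not tested.

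After dpi 2, Fos, Fosl1, Junb and Maff fell in OL, and these 4 genes were called lower on dpi 10 and again on dpi 42. Over all genes, 3.00% and 2.73% were called lower in these comparisons. From dpi 2 to dpi 10 Fos fell by 1.35 ± 0.23 on the log2 scale (adjusted p 1.71e-04), Fosl1 by 3.10 ± 0.80 (0.00748), Junb by 1.70 ± 0.21 (6.94e-06) and Maff by 2.55 ± 0.41 (1.12e-04). From dpi 2 to dpi 42 the falls were 1.75 ± 0.23, 2.82 ± 0.79, 1.43 ± 0.21 and 1.16 ± 0.39. The fall of Maff to dpi 42 (adjusted p 0.0449) was lost without the OL library of dpi 2 pool 1, 2 or 3 or of dpi 42 pool 2 or 3 (adjusted p 0.062 to 0.153), and that of Fosl1 without the OL library of dpi 42 pool 1 (adjusted p 0.0671). Without pool 2 of dpi 2 the fall of Maff was lost too (adjusted p 0.0737), as was that of Fosl1 in total RNA on dpi 10 (0.0927), while on dpi 42 against dpi 2 in OL Jund became called higher (1.19, adjusted p 1.35e-05, against 0.95) and Egr1 lower (-1.06, adjusted p 0.0317, against -0.94). With a block for replicate number the fall of Maff to dpi 42 had an adjusted p of 0.0568. In total RNA Fosl1 alone was called lower than on dpi 2, on dpi 10 beside 0.967% of all genes (-2.73 ± 0.78) and on dpi 42 beside 1.73% (-3.72 ± 0.82). The dpi 10 call was lost without any 1 of the 6 libraries compared (adjusted p 0.0658 to 0.142), and without the total RNA library of dpi 42 pool 2 the dpi 42 value was -4.47.

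Summed per kilobase, the Fos family made up 0.506% to 0.961% of the Fos and Jun families together in naive OL and 12.6% to 15.98% on dpi 2. On dpi 10 the share was 3.80% to 5.52% and on dpi 42 1.96% to 4.06%. Jund made up 81.8% to 87.6% and 82.7% to 89.3% of the Jun family in OL on these days. The share was taken without the offset for length and GC content, under which the Jund call of dpi 42 was lost. In total RNA it was 6.05% to 6.86% in naive tissue, 12.5% to 14.9% on dpi 2, 5.61% to 6.64% on dpi 10 and 6.49% to 7.37% on dpi 42. The share was thus lower in OL than in total RNA in each naive library, and on dpi 2 the compartments overlapped. With 3 libraries against 3 an exact two-sided permutation test cannot give a p under 0.1. It gave this value for the OL share on each day and for total RNA on dpi 2 (adjusted p 0.15 over 6 comparisons), 0.6 for total RNA on dpi 10 and 0.3 on dpi 42. Within the Fos family of OL, Fos itself made up 67.8% to 96.6% before injury and 84.6% to 89.4% on dpi 2. Within the Jun family of OL, Junb made up 0.323% to 0.438% before injury and 6.88% to 9.22% on dpi 2, when Jund still made up 71.2% to 79.5%.

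**Figure D5:**
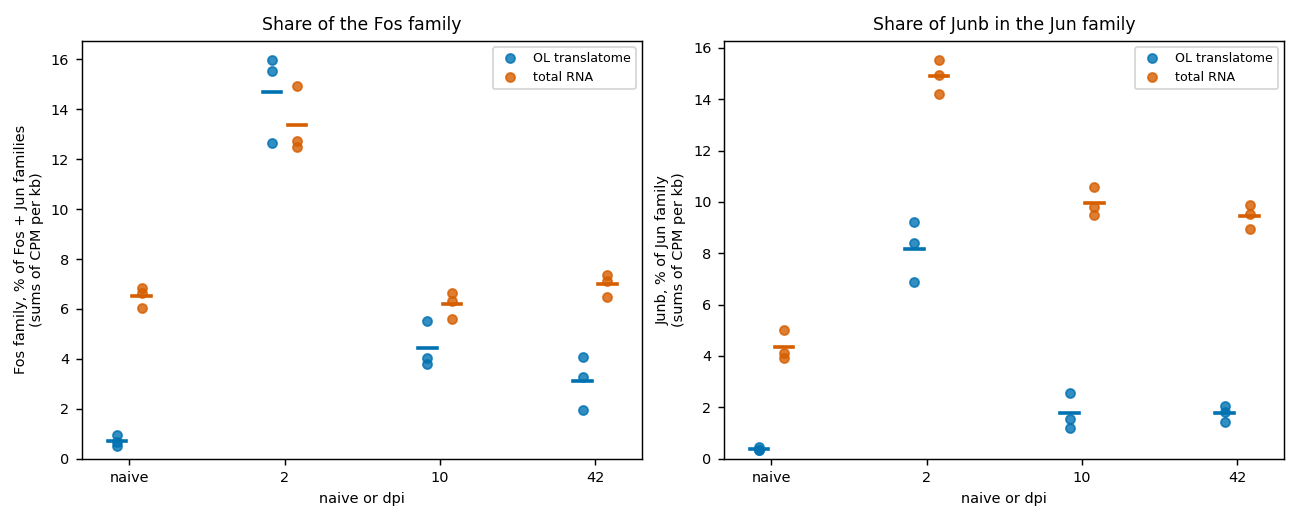
Share of the Fos family in the summed Fos and Jun families (left) and share of Junb in the Jun family (right), in percent of summed CPM per kb, in each OL (blue) and total RNA (orange) library with group means as bars. In OL both shares are highest on dpi 2, at 12.6% to 15.98% and 6.88% to 9.22%, and remain above the naive libraries on dpi 10 and 42.

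Other genes of the pathway were counted in lists. Over all genes, 10.2% were called higher and 6.85% lower in OL on dpi 2, and the counts stand beside these shares. Of 11 further AP-1 and small Maf leucine zipper genes, 2 were called higher and 1 lower, near those shares, with a median log2 change of 0.00, or -0.07 with Batf set at the floor of 3 counts per library. Atf3, an injury-responsive partner of Jun, rose from 0.127 to 0.612 CPM in naive OL to 9.87 to 17.3 CPM (4.98 ± 0.41, adjusted p 7.15e-09) and by 5.26 ± 0.38 in total RNA. Mafk, a relative of Maff, rose by 1.25 ± 0.22, and Bach2, a repressor that pairs with small Maf proteins, fell by 1.36 ± 0.31. Of 26 other immediate early genes, 14 were called higher and 1 lower, with a median of 1.497. Trib1, which encodes a pseudokinase, rose from 10.6 to 11.9 CPM to 120 to 186 CPM (3.83 ± 0.25). Ccn2, a matricellular growth factor gene, rose by 5.71 ± 0.58, and the early response gene Ier2 by 2.55 ± 0.27. Arc, the immediate early gene of synapses, fell in OL from 147 to 238 CPM to 26.5 to 49.3 CPM (-2.41 ± 0.25, adjusted p 1.52e-07).

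Of 12 feedback regulators, 4 were called higher and 1 lower in OL on dpi 2, beside 10.2% and 6.85% of all genes, with a median of 0.37. Nab2, a corepressor of EGR proteins, rose by 2.99 ± 0.44, and stayed up by 3.03 ± 0.44 and 2.85 ± 0.44 on dpi 10 and 42. Dusp5, a phosphatase of ERK, rose by 4.13 ± 0.62, and Zfp36, whose protein speeds the decay of early response mRNAs, by 1.02 ± 0.23. Dusp16, a phosphatase of JNK and p38, fell by 1.51 ± 0.16 from 114 to 149 CPM to 44.2 to 47.4 CPM. Of 18 upstream kinases and promoter-binding factors, 1 was called higher and 2 lower, near the 10.2% and 6.85% of all genes, with a median of -0.08. They were the ternary complex factor Elk3 (1.30 ± 0.40), the kinase gene Rps6ka5 (-1.07 ± 0.18) and the SRF cofactor Mrtfb (-1.01 ± 0.21).

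Of 16 genes with AP-1 sites known from other cells, 10 were called higher and 1 lower in OL on dpi 2, beside 10.2% and 6.85% of all genes, with a median of 3.55, or 2.46 with the 8 genes at or under 3 counts in each library of a group set at that floor. Total RNA had 13 of the 16 called higher on dpi 2 and 0 lower (median 4.66, or 3.87 with 3 genes at the floor). OL against total RNA on dpi 2 gave 10 called lower and 0 higher (median -3.81), beside 7 and 0 in naive tissue (-2.82). The interaction on dpi 2 was called higher for 1 gene and lower for 1 (median -0.47). The part of cells other than OLs in the OL calls was not tested. Spp1, which encodes osteopontin, rose from 4.33 to 5.42 CPM to 169 to 243 CPM (5.42 ± 0.23) in OL. The heme oxygenase gene Hmox1 rose by 4.17 ± 0.27 in OL and by 6.43 ± 0.30 in total RNA, a difference of -2.26 ± 0.35 (adjusted p 1.63e-04). The cyclin gene Ccnd1 rose by 2.92 ± 0.22. Timp1, an inhibitor of metalloproteinases, had at most 3 counts in a naive OL library and 52.7 to 199 CPM on dpi 2, at least 837-fold higher in the mean. Spp1, Hmox1 and Timp1 are also known from myeloid cells or fibroblasts. Summed fibroblast and pericyte markers went from a mean of 65.2 CPM to 219 CPM in OL and from 75.2 to 552 CPM in total RNA on dpi 2, and their part in these rises was not tested.

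Genes with the most similar profile were sought among 13667 other genes with a mean of at least 1 CPM, by the root mean square difference over the 6 log2 changes from naive. Those changes share the naive libraries of each compartment. Nearest to Fos was Grap, an adaptor gene (0.26), followed by Tnfrsf12a, the TWEAK receptor gene (0.44), and nearest to Junb were Cdca7l (0.21) and Steap3, a ferrireductase gene (0.40). Nearest to Egr1 were Gbx2 (0.23) and Socs2 (0.25), to Fosb Cdh13 (0.19) and Slc7a1 (0.20), and to Fosl2 Nrtn (0.32) and Rhod (0.41). Maff was nearest to S100a10 (0.46) and Nes (0.48), and Fosl1 to Tubb6 (0.55) and Birc5 (0.69).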

How the data were processed

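RNA from HA immunoprecipitates and from the matched input was sequenced in 24 libraries. The authors aligned reads to mm10 with STAR, counted them with HTSeq 0.10.0 (the submitters' notes also list FastQC 0.10.1), and deposited raw counts for 21965 genes, without normalization. The strand setting is not given in the sources used here.

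Groups came from the labels; 2 dpi 42 libraries of 1 pool have a title and description that disagree, and the description, which matches the column names, was followed. Counts were tested in R 4.3.3 with edgeR 4.0.16 (quasi-likelihood, TMM, 8 group means, genes with at least 10 counts in sum), with Benjamini-Hochberg adjustment over 17167 genes. A call needs a log2 fold change past 1 and an adjusted p under 0.05. The SE is the log2 fold change over the root of F. The test was tried on simulated data. Exon lengths came from GENCODE M21. DESeq2 1.42.0 was an alternative. P-values measure the spread between these pools of 2 mice.

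Named were all 10 genes, from each other list at most 4 called genes with the smallest p in OL on dpi 2, and 2 nearest profiles for each gene called there. The members and lists were chosen with earlier results of these data known. The motifs and the Schwann pool alternative were chosen after seeing the data. OL and total RNA libraries of a pool come from the same tissue and are paired by it. On dpi 42 some titles give other sample numbers, so the pairing there rests on the column names. The authors' methods pair the libraries in differential enrichment, and a block for the pool was run as an alternative. The deviations of OL and total RNA libraries of a pool from their group means had r of 0.0408 to 0.137 in naive tissue. On dpi 2 r was 0.0879 to 0.108, on dpi 10 0.0245 to 0.063 and on dpi 42 -0.0109 to 0.02. Between pools it was at most 0.0502, -0.0184, 0.0117 and 0.0253 in the same order. In naive tissue and on dpi 42 the ranges within and between pools overlapped, so r did not set the pairs apart there. No libraries agreed within sampling noise (median chi-square per gene 2.51 to 21.1). Some marker genes are not reported here, and the marker lists leave them out.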

Additional observations from a re-analysis of the deposited data

Results flagged for a closer look

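The change from naive tissue differed between OL and total RNA, by the interaction test in edgeR (adjusted p under 0.05 and a log2 difference past 1), in 12 cases. Values are the OL change less the total RNA change on the log2 scale. On dpi 2 they were 3.16 for Fos, 2.19 for Fosl2, 2.17 for Junb, 2.02 for Egr1, 1.79 for Maff and -1.37 for Jun, the only gene of the 10 with the larger rise in total RNA by this test. On dpi 10 they were 2.74 for Fos, 2.54 for Fosl2 and 1.41 for Egr1. On dpi 42 they were 2.21 for Fos, 2.68 for Fosl2 and 1.44 for Junb. The 3 days share their naive libraries.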

How the results depend on the processing

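Leaving out 1 library at a time moved the number of the 10 genes called to 6 to 8 (dpi 2), 5 to 7 (dpi 10) and 6 to 8 (dpi 42) for OL against naive, and to 6 to 7, 2 to 4 and 2 to 4 for total RNA. It gave 8 to 9, 2 to 3, 5 and 3 to 5 for OL against total RNA in naive tissue and on dpi 2, 10 and 42, and 4 to 6, 2 to 4 and 3 to 4 for the interaction. Against dpi 2 it gave 4 and 3 to 5 in OL and 0 to 2 and 1 in total RNA. Without both libraries of naive pool 3, an alternative added after seeing the data, 4 genes instead of 2 were called in total RNA on dpi 42. In total RNA on dpi 10 against dpi 2, where 1 gene was called, 2 were called with library sizes alone, filterByExpr, DESeq2, only the groups compared, or the length and GC offset, and 0 without pool 2 of dpi 2. On dpi 42 against dpi 2, 3 instead of 1 were called with only the groups compared. The cause was not tested.

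Egr2 in OL against total RNA of naive tissue (1.24, not called) was -7.57 without the OL library of pool 3 and 6.61 without the total RNA library of that pool. With only the groups compared, calls were lost for Fosb in OL on dpi 2 (adjusted p 0.141), Fosl1 in OL on dpi 10 and 42 (0.163 and 0.149), Fosb in OL against total RNA on dpi 42 (0.0808), the dpi 2 interactions of Fosl2 (0.075) and Maff (0.0712) and the fall of Maff in OL to dpi 42 (0.137). The same setting brought 5 results past the threshold: Egr2 in total RNA on dpi 10 (0.00389) and 42 (0.00761) against naive and on dpi 42 against dpi 2 (0.0117), and Maff in total RNA against dpi 2 on dpi 10 (0.00276) and 42 (0.0182). Fosl1 in total RNA on dpi 42 (adjusted p 0.1) became called with DESeq2 (0.0416). DESeq2 left 165 of the single-gene results on the same side of the threshold and brought 5 past it. Keeping every gene with a count changed none of 170.

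Libraries of 1 tissue pool are paired by their tissue, on dpi 42 by conflicting labels, whereas replicate numbers pair nothing across time points. With a replicate block by tissue pool, 67 results stayed on their side, the interaction of Maff on dpi 2 was lost (1.91, adjusted p 0.0562) and that of Egr1 on dpi 42 was gained (1.31, 0.0223), as was Egr2 in OL against total RNA on dpi 2 (1.91, 0.00849). With a block by replicate number 99 stayed, and the fall of Maff in OL from dpi 2 to dpi 42 was lost (-1.17, 0.0568). Genes with a few counts per library, Fosb and Fosl1 before injury and Egr2 in naive pools 1 and 2, are limited by depth.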
